A study of Mus musculus with 6 samples.

Results

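The subject is a stretch of mouse chromosome 1, from 145 to 185 Mb in GRCm38 (mm10), in ATAC-seq of primary oviductal muscle cells that lacked or carried Pbrm1. Its members are accessible regions. They were obtained by merging the conservative peak list of each genotype into 66679 regions and keeping the 1374 that lay wholly inside the stretch. Both genotypes were sampled on day 2 of pregnancy from females aged 8 to 12 weeks that had been mated with stud males, with 3 biological replicates each. How many females gave each sample is not given in the sources used here. The labels call the control group WT. The study's methods describe such controls as littermates homozygous for the floxed Pbrm1 allele, here written Pbrm1 fl/fl. The knockout group, Pbrm1 cKO, carried the same floxed alleles and PR-IRES-cre, a Cre recombinase expressed from the progesterone receptor gene Pgr, so deletion was limited to cells that express or had expressed this receptor anywhere in the reproductive tract. Pbrm1 lies on chromosome 14 and Pgr on chromosome 9, so neither targeted locus is inside the stretch. Whether the genotypes differed in DNA sequence there, for example in strain background, was not tested, and reads were not used here. Oviduct tissue was digested and passed through a filter, and the cells were plated for some hours before the nuclei were exposed to the Tn5 transposase. The stretch was chosen from these same libraries, because regions in it ranked differently in WT and Pbrm1 cKO. Every difference between genotypes given here is therefore a description of how the members were selected and of what they look like, and none serves as a test of the stretch.

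PBRM1, also called BAF180 or polybromo, is the bromodomain subunit that distinguishes the PBAF form of the SWI/SNF complex. SWI/SNF complexes use ATP to slide or evict nucleosomes, and bromodomains bind acetylated histone tails. Tn5 inserts preferentially where nucleosomes are displaced, so a strong ATAC-seq peak marks an accessible promoter, enhancer or insulator. The muscle layer of the oviduct moves the early embryo toward the uterus by its contractions, which respond to prostaglandins and to G-protein-coupled receptors. Genes for both kinds of signal lie in this part of chromosome 1, among them Ptgs2, the inducible cyclooxygenase, Pla2g4a, the phospholipase that releases arachidonic acid, and several regulators of G-protein signalling. The stretch also holds the Ifi200 family of interferon-inducible DNA-binding proteins, the low-affinity Fc receptors and the Lefty genes.

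In each library a region was given the best −log10 p-value of the peaks that overlapped it and was ranked against all 66679 regions. Rank 1 is the strongest, and a region without a peak in a library shares the last rank, 66679. The rank score is log2 of 66679 divided by the rank, so that it is 0 at the last rank and a difference of 1 is a doubling in rank. A difference is always the mean of the 3 Pbrm1 cKO libraries minus the mean of the 3 WT libraries and is positive where the region ranked higher, that is stronger, in Pbrm1 cKO. Genotypes are said not to overlap where all 3 scores of one lie above all 3 of the other. Whether a region lost accessibility in all cells or was accessible in fewer cells cannot be told apart in bulk nuclei.

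The sequences below are from the reference genome, on its plus strand, and show 200 bases centred on the summit of the strongest pooled peak. They are 4 members with the largest positive and 3 with the largest negative differences among those without overlap, and the Ptgs2 promoter. Capitals mark TGANTCA, the letters bound by AP-1 (Fos and Jun dimers), searched on both strands.
Cacybp promoter, chr1:160212852-160213051: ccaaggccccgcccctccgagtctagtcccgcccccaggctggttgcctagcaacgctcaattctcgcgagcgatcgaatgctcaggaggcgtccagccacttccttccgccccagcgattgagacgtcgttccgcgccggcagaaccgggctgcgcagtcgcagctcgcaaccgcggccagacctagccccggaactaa
1700025G04Rik intron, chr1:151953680-151953879: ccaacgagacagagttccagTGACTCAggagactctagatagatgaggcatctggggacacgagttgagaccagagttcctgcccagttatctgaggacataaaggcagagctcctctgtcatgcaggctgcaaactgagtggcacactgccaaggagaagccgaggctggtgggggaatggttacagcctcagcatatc
Pigm promoter, chr1:172376375-172376574: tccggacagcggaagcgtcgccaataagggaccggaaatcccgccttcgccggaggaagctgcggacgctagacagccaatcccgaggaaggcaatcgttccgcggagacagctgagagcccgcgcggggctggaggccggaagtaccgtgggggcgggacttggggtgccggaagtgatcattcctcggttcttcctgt
Region between Ifi203 and Ifi202b, chr1:173955208-173955407: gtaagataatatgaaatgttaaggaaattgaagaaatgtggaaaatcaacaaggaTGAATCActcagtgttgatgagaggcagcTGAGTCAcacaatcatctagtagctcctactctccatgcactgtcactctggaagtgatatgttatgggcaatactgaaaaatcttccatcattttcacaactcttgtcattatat
Ifi211 promoter, chr1:173912922-173913121: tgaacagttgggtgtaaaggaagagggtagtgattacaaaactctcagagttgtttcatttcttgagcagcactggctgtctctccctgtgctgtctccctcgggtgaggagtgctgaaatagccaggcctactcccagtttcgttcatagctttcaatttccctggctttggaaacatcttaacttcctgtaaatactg
Region nearest Shcbp1l, chr1:153386748-153386947: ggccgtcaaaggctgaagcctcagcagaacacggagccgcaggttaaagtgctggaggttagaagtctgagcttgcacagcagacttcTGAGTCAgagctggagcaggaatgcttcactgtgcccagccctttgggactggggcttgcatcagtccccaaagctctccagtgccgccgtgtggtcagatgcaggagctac
Rasal2 intron, chr1:157380726-157380925: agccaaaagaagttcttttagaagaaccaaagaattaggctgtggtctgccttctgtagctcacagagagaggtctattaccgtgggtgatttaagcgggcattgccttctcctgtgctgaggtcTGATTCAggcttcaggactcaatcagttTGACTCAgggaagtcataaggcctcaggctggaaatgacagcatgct
Ptgs2 promoter, chr1:150099783-150099982: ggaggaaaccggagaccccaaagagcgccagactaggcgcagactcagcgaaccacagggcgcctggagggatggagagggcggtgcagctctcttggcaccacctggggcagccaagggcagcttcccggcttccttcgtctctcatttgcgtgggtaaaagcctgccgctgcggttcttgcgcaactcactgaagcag

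The promoter windows of Cacybp and Pigm were rich in CpG, with 23 and 22 CpG pairs in 200 bases, and held no AP-1 match. The Ifi211 promoter held 2 CpG pairs and no AP-1 match. By contrast, the window between Ifi203 and Ifi202b and that in the Rasal2 intron each held 2 matches, and those in 1700025G04Rik and nearest Shcbp1l held 1. These 4 lie away from annotated transcription starts. A match is a description of the letters and not evidence of binding.

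Peak strength over the members was similar in 5 of the 6 libraries. MACS2's fold and p-value together give back the whole number of tags at a summit, which they did for 99.5% to 100% of the members with a peak, within 0.01 on the −log10 scale. The median summit held 27, 24 and 15 tags in WT replicates 1, 2 and 3, and 30, 25 and 26 tags in Pbrm1 cKO replicates 1, 2 and 3. WT replicate 3 was the shallow library. It lacked a peak at 72 members, against 13 to 25 in the other libraries, which is why ranks and not heights are compared here. Of the 1374 members, 1260 (91.7%) had a peak in all 6 libraries, beside 93.5% of all regions. Among the markers of the labelled cell type, promoters of all 5 smooth muscle genes examined (Acta2, Myh11, Cnn1, Tagln and Des) overlapped a region, with mean ranks between 19388 and 46897. All 3 fibroblast (23334 to 38127) and all 3 endothelial promoters (21012 to 47707) did as well, and so did 2 of 3 leukocyte promoters (22592 and 39080). Of 6 epithelial promoters only that of Foxj1 did, at a mean rank of 4389, ahead of every smooth muscle promoter examined. The peak lists thus did not set the labelled cell type apart from fibroblasts, endothelium or leukocytes, and epithelial cells are not excluded. None of the marker regions separated the genotypes. The Pbrm1 promoter, which the Cre does not remove, ranked 10526 to 19395 in WT and 12332 to 22222 in Pbrm1 cKO and does not check the deletion.

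Members differed between the genotypes in both directions and by about the same amount each way. The genotypes did not overlap at 183 members that ranked higher in Pbrm1 cKO (13.3%) and at 202 that ranked lower (14.7%). Over all 66679 regions the corresponding shares were 10.6% and 10.8%, and over the other 3239 regions of chromosome 1 they were 11.1% in each direction. Since this contrast selected the stretch, nothing is read from the excess. The median difference was 0.01 in the members and 0.00 in all regions, so that the stretch as a whole ranked neither higher nor lower. Its median absolute difference was 0.30, beside 0.26 in all regions and 0.27 in the rest of the chromosome. Large differences were more frequent. An absolute difference over 1 occurred at 5.31% of members and 2.93% of all regions, in 37 members upward and 36 downward. In limma fitted over all regions, 3 members were called higher, where 0.0390% of all regions were, and 3 were called lower, where 0.0300% were. Without WT replicate 1, WT replicate 2, Pbrm1 cKO replicate 1 or Pbrm1 cKO replicate 2 the fit called no member, with 222 to 269 members and 7867 to 9653 of all regions at an unadjusted p under 0.05. Over all regions those fits called 2 higher each, and 3, 2, 0 and 0 lower in that order. Without WT replicate 3 the fit called 2 members in each direction (6 higher and 19 lower over all regions). Without Pbrm1 cKO replicate 3 it called 1 member higher and 0 lower (4 and 0 over all regions). With all libraries, 290 members and 10605 of all regions were at an unadjusted p under 0.05. The calls and these counts use the values that selected the stretch, so for members they are descriptions and not tests. Among the 3239 regions in the rest of chromosome 1 limma called 0, and 559 were at an unadjusted p under 0.05. In the plot of differences along the stretch, red and blue points both occur in each bin of 2 Mb from 149 Mb on, in unequal numbers.

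**Figure D1:**
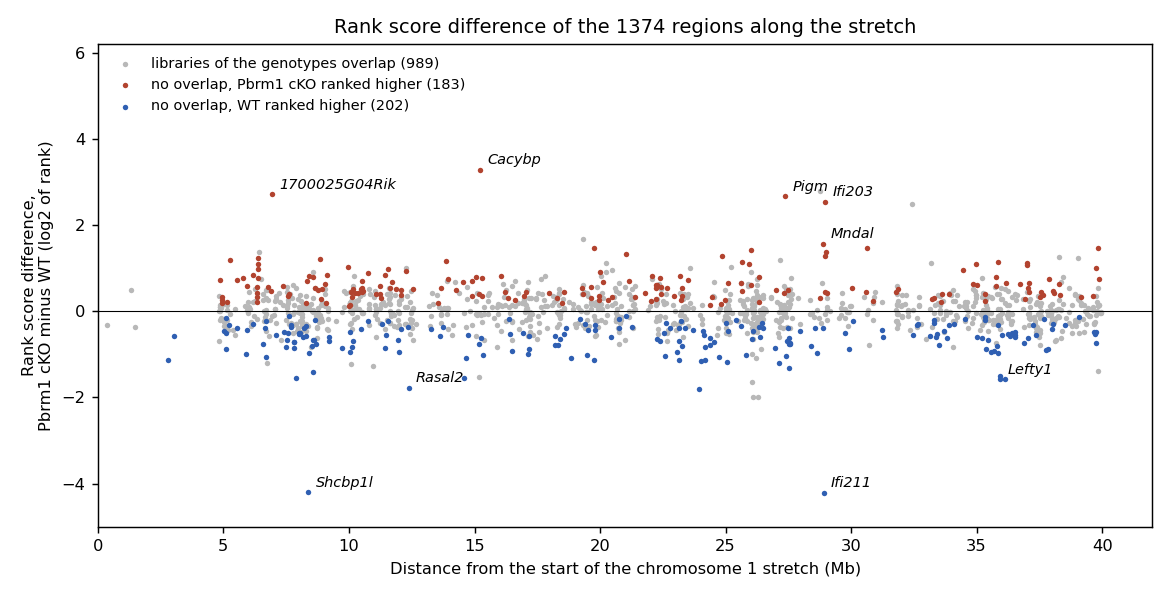
Rank score difference (Pbrm1 cKO minus WT, log2 of rank, mean of 3 libraries each) of each of the 1374 regions against its distance from the start of the stretch in Mb. Red points (183) ranked higher and blue points (202) lower in Pbrm1 cKO with no overlap between genotypes, grey points (989) overlapped, and both colours occur in each bin of 2 Mb from 149 Mb on.

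Regions were sparse at the start of the stretch and dense from about 149 Mb. The first 2 bins of 2 Mb, between 145 and 149 Mb, held 5 regions together and were not ranked. Among the other 18 bins the share of members without overlap ran from 18.4% at 161 to 163 Mb to 37.0% at 149 to 151 Mb. The bin with the highest share held 46 regions, 9 higher and 8 lower in Pbrm1 cKO, and contains Pla2g4a, Ptgs2 and Hmcn1. The second, at 167 to 169 Mb, had 36.0% of 86 regions without overlap, 16 higher and 15 lower. The third, at 173 to 175 Mb, contains the Ifi200 genes and had 34.1% of 41 regions, 7 in each direction. Low shares were found at 161 to 163 Mb (18.4% of 76), 165 to 167 Mb (18.8% of 64), 171 to 173 Mb (19.2% of 125) and 183 to 185 Mb (19.3% of 83). The bin at 155 to 157 Mb leaned upward, with 22 regions higher and 11 lower, and those at 177 to 179 Mb (5 higher, 12 lower) and 171 to 173 Mb (7 higher, 17 lower) leaned downward. In the 10 Mb before the stretch, 28 of 245 regions were higher and 21 lower without overlap, together 20%. In the 10 Mb after it these were 36 and 34 of 310, together 22.6%. At the upper limit the Mark1 promoter region, which crosses 185 Mb, was left out with a difference of 0.01, and the last member, in a Mark1 intron, had −0.02. At the lower limit the first member, which has Rgs18 as its nearest coding gene, had −0.33, and the last region before the limit had −0.06.

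**Figure D2:**
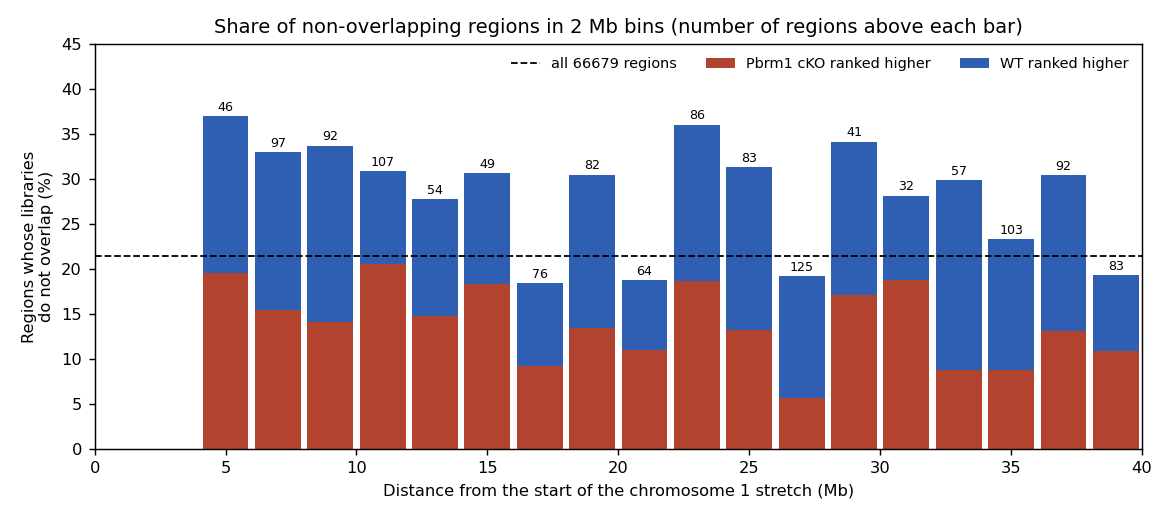
Percentage of regions whose libraries do not overlap between genotypes, in bins of 2 Mb along the stretch, split into regions ranked higher (red) and lower (blue) in Pbrm1 cKO; the number above a bar is the number of regions in the bin, and bins with fewer than 20 are left out. The dashed line is the share over all 66679 regions, 21.4%, and 14 of the 18 bars stand above it.

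Among members without overlap, the 12 with the largest upward differences in Pbrm1 cKO had values from 1.29 to 3.28, and 9 of them lay at promoters. At the Cacybp promoter (chr1:160212152-160213447), which is shared with the noncoding 4933417C20Rik, ranks were 1324, 3478.5 and 1512 in WT and 72, 192 and 548 in Pbrm1 cKO. Cacybp encodes a calcyclin-binding protein that takes part in ubiquitination of β-catenin. The summit held 78 to 129 tags in WT and 151 to 192 in Pbrm1 cKO, and the difference was 3.28 ± 0.86 (n = 3 per group). The SE here and throughout is limma's, which is drawn toward a trend over all regions and can be larger or smaller than the spread of a region's own libraries. An intronic region of 1700025G04Rik (chr1:151953528-151954127), a gene without an assigned function, was weak in WT, with ranks of 62994, 63493 and 43294. In Pbrm1 cKO it ranked 8155, 6161 and 12143. Its summit held 10, 9 and 10 tags in WT and 67, 68 and 50 in Pbrm1 cKO, the difference was 2.72 ± 0.35, and it was among the 3 members called higher. It was in the conservative list of Pbrm1 cKO and not in that of WT. The Pigm promoter (chr1:172376007-172377153) was strong in every library, at ranks 498, 61 and 244 in WT and 19, 29 and 52 in Pbrm1 cKO. Pigm encodes the mannosyltransferase that adds the first mannose to glycosylphosphatidylinositol anchors. Its difference of 2.67 had an SE of 1.98. A small change in rank at the top of the list is large on this scale.

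Several of the next members belong to the Ifi200 family. The region between Ifi203 and Ifi202b (chr1:173954933-173955393) ranked 24787.5, 16369 and 16917.5 in WT and 2694, 4659 and 2793 in Pbrm1 cKO. It held 21 to 31 tags in WT and 68 to 92 in Pbrm1 cKO, had a difference of 2.54 ± 0.38 and was called higher. The promoters of Mndal (1.57), Ifi202b (1.38) and Ifi203 together with a second start of Mndal (1.29) also ranked higher without overlap. Those of Ifi202b and Ifi203 have a near-identical copy elsewhere in the genome, so that reads there may have been placed at either.

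The remaining upward members were promoters of genes with separate roles and 1 intergenic region. At the promoter of Fh1, the fumarate hydratase of the tricarboxylic acid cycle, ranks were 686, 722 and 606 in WT and 171, 206 and 394 in Pbrm1 cKO. The promoter of Marc2, a mitochondrial reductase, ranked 4712.5, 3494 and 3318.5 in WT and 1796, 488 and 2902 in Pbrm1 cKO. Its difference of 1.48 ± 0.59 rested in large part on Pbrm1 cKO replicate 2 and was 0.73 without that library. A region 39.2 kb from Dpt, the gene of the matrix protein dermatopontin, was at or near the bottom in WT (62673, 53013 and no peak) and ranked 26403, 20101 and 19368 in Pbrm1 cKO. The Fcgr4 promoter, which belongs to an activating Fc receptor of myeloid cells, ranked 29586, 30682.5 and 35549.5 in WT against 12425, 15778 and 8705.5. The 2 promoter regions of another Fc receptor gene, Fcgr3, went the other way, with a median difference of −1.31, and overlapped. The predicted gene Gm7626 completed the set with 1.32 ± 0.33. The 13th member, an intergenic region nearest Ccdc190, had 1.28.

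Among the 12 members without overlap that had the largest downward differences, 7 lay at promoters and the values ran from −1.20 to −4.21. The Ifi211 promoter (chr1:173912518-173913768) ranked 115, 44 and 2116 in WT and 4193, 2466 and 6600 in Pbrm1 cKO. It thus ran against the other Ifi200 promoters named above. WT replicate 3 lay close to the Pbrm1 cKO libraries, and the SD of the rank score was 2.91 in WT and 0.71 in Pbrm1 cKO. The difference was −4.21 with an SE of 1.02, and the region has 1 near-identical copy. An intergenic region 38.1 kb from Shcbp1l (chr1:153386437-153387019) was among the strongest of all regions in each WT library, at ranks 70, 390 and 495. In Pbrm1 cKO it ranked 3814, 4914 and 4492. Summits held 61 to 125 tags in WT and 62 to 77 in Pbrm1 cKO, the difference was −4.20 ± 0.74, and the region was called lower. It remained in the conservative lists of both genotypes, so the difference was one of strength.

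Further downward members were weaker distal elements. In an intron of Rasal2 (chr1:157380510-157381128), which encodes a Ras GTPase-activating protein, ranks were 9953.5, 8651.5 and 9498.5 in WT and 32795, 36346.5 and 27316 in Pbrm1 cKO. The WT values there were close together, the difference was −1.77 ± 0.32, and the region was called lower. In an intron of Tnr, the tenascin-R gene, the ranks were 30220, 17627 and 22312 in WT, and no Pbrm1 cKO library had a peak. That region (chr1:159566747-159567098) was the third called lower, at −1.55 ± 0.27.

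The promoter of Lefty1, an antagonist of Nodal signalling, ranked 19536.5, 21009 and 9876.5 in WT and 49934.5, 40003 and 54406.5 in Pbrm1 cKO. Its difference was −1.58 ± 0.35. The promoter shared by Cnih4, a cargo receptor of the endoplasmic reticulum, and Nvl, an ATPase of ribosome assembly, had −1.56 ± 0.49. Npl, which degrades sialic acid, had −1.41 ± 0.33 and the predicted gene Gm37125 −1.33 ± 0.32. Pex19, a chaperone for peroxisomal membrane proteins, ranked 22887.5, 22723 and 24830.5 in WT and 61353, 53347 and 48136.5 in Pbrm1 cKO, a difference of −1.20 ± 0.28.

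**Figure D3:**
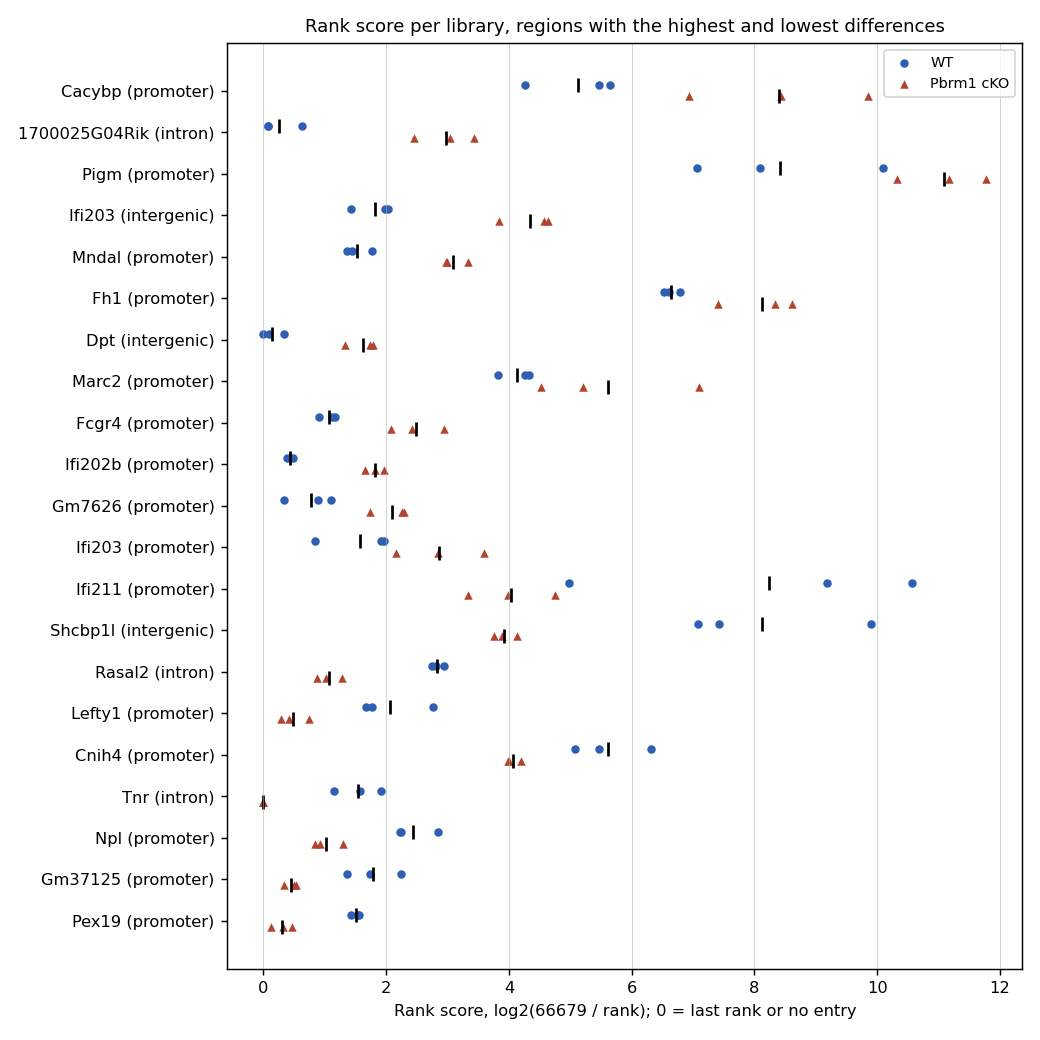
Rank score, log2(66679 / rank), of the 3 WT (blue circles) and 3 Pbrm1 cKO (red triangles) libraries at the 12 regions with the highest and 9 of those with the lowest difference among those without overlap; black ticks are group means and names are promoter genes, host genes or the nearest coding gene. Cacybp, Pigm and Ifi211 lie at high scores with wide spread, whereas Tnr has all 3 Pbrm1 cKO libraries at 0.

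Peaks present in all 3 libraries of one genotype and in none of the other were found at 15 members, of which 9 lacked a peak in WT and 6 in Pbrm1 cKO. Over all 66679 regions these numbers were 121 and 51. They were weak, with 6 to 36 tags at the summit and a median of 17, and only 1 lay at a promoter, that of Adcy10. The strongest without a WT peak was 2.81 kb from Rgsl1 (chr1:153846949-153847369), ranked 29674.5, 28426 and 28237 in Pbrm1 cKO, with 32, 27 and 26 tags. It was the third member called higher, at 1.21 ± 0.21. Also seen only in Pbrm1 cKO were 3 in or near Ivns1abp and 1 each in introns of Sdccag8 and Enah, at the Adcy10 promoter and 37.1 kb from Srp9, with differences from 0.22 to 0.77. Seen only in WT, besides the Tnr intron, were regions nearest Brinp3 (−1.13), Zfp648 (−0.60), Ccdc121 (−0.47) and Degs1 (−0.33) and in an intron of Nme7 (−0.29). The Brinp3 region lies 1305 kb from that gene and ranked 42542, 20615 and 32304.5 in WT. Peaks outside the merged regions showed the same kind of event. Of 6489 further intervals in the stretch, 95 had a peak in all 3 Pbrm1 cKO libraries and no WT library and 59 the reverse, whereas 3784 appeared in 1 library only. Such intervals were not counted outside the stretch, so nothing is read from their numbers.

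Neighbouring members ranked in the same direction at a few places. Of 384 pairs of members without overlap that follow each other along the chromosome, 199 (51.8%) had the same direction, beside 54.1% over all regions. Runs of at least 3 adjacent members without overlap in the same direction numbered 5. Such runs were not counted over all regions, so nothing is read from their number. The run with the most regions covered 21.1 kb of Ivns1abp, which encodes an actin-binding kelch protein, and the promoter of Swt1, an RNA endonuclease. Its 6 regions ranked higher in Pbrm1 cKO by 0.22 to 1.24. The strongest of them, in an Ivns1abp intron (chr1:151362569-151363041), ranked 44195.5, 20863 and 22396.5 in WT and 11399, 9761.5 and 14064 in Pbrm1 cKO. At the Swt1 promoter the ranks were 43618, 61290.5 and 51846.5 against 19093, 35680 and 26972. The run downward, with 5 regions over 288 kb of a gene-poor interval that has Nuf2 as its nearest coding gene, had differences from −0.46 to −1.13. Its largest (chr1:169165894-169166642) ranked 22144, 18211.5 and 37212.5 in WT and 56995.5, 52157 and 52695 in Pbrm1 cKO. The others had 3 regions each, near Xcl1 (higher, 0.25 to 0.92), at Ifi203 and Ifi202b (higher, 0.45 to 2.54) and near Ccdc121 (lower, −0.47 to −0.60).

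**Figure D4:**
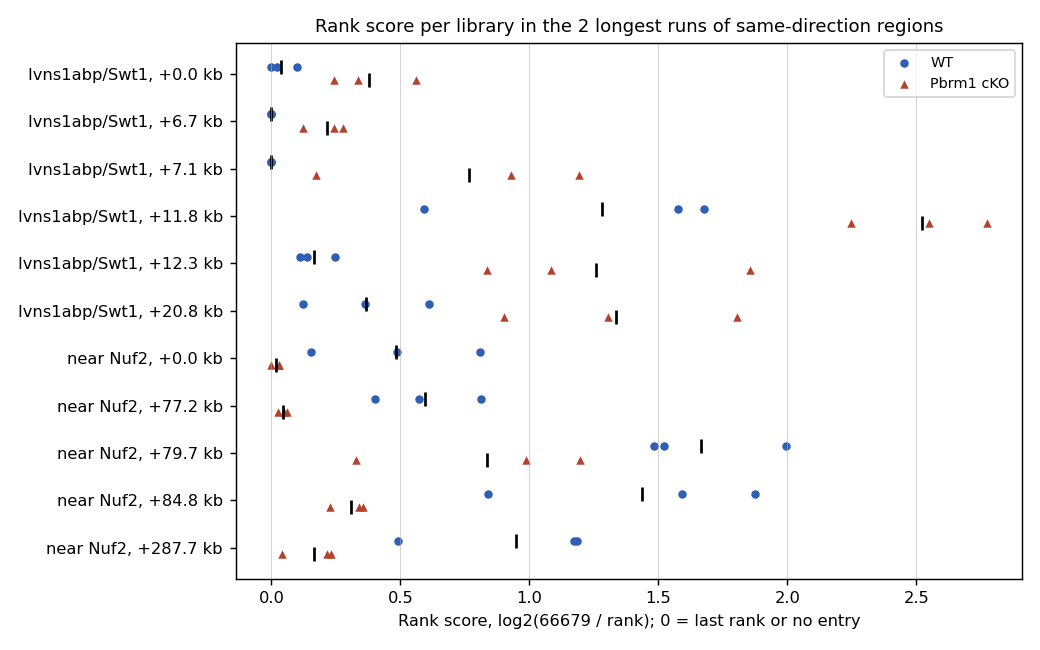
Rank score of each WT (blue circles) and Pbrm1 cKO (red triangles) library at the 6 regions of the run in Ivns1abp and Swt1 and the 5 of the run nearest Nuf2, labelled by distance from the first region of the run in kb; black ticks are group means. All red triangles lie to the right of the blue circles in the first run and to the left in the second, and most scores are below 2.

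Among all 21555 promoters, the genotypes did not overlap at 6.64% with a higher and 10.2% with a lower rank in Pbrm1 cKO, and of the 357 member promoters 11.8% and 12.6% did. Genes for prostaglandin production had accessible promoters with small differences. The Ptgs2 promoter (chr1:150099413-150100379) ranked 8740, 12887 and 4642 in WT and 12037, 6582.5 and 13206 in Pbrm1 cKO, so the genotypes overlapped, and the difference was −0.33 ± 0.42. The Pla2g4a promoter ranked 14158.5, 13358.5 and 13563.5 in WT and 12362.5, 11637.5 and 12205.5 in Pbrm1 cKO. The genotypes did not overlap, and the SDs of their rank scores were 0.0435 (WT) and 0.0460 (Pbrm1 cKO). The difference of 0.18 was smaller than limma's SE of 0.32. Of the 15 other members inside Pla2g4a, 3 ranked higher without overlap and none lower. Within 50 kb of Ptgs2 the clearest difference was 10.6 kb upstream, in an intron of the noncoding Ptgs2os, where ranks were 35198, 34830 and 32304.5 in WT and 64717, 65332.5 and 59121 in Pbrm1 cKO.

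Of 11 regulators of G-protein signalling looked up, which shorten the signal of G proteins by speeding GTP hydrolysis, 6 lie in the stretch and 5 had a member at the promoter. Only that of Rgs4 had genotypes apart, with ranks of 28486.5, 25593.5 and 37845.5 in WT and 63964, 58229.5 and no peak in Pbrm1 cKO, a difference of −1.06 ± 0.23. Rgs7 (0.33), Rgs8 (0.55), Rgs16 (−0.35) and Rgsl1 (−0.16) overlapped, and Rgs5, a marker of vascular mural cells, had no promoter member.

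Among 11 genes of extracellular matrix and secreted proteins, 7 had promoter members, 8 regions in all, of which 3 were higher and 1 lower without overlap. The promoter of Lamc1, the laminin γ1 chain of basement membranes, ranked 13767, 16339 and 12404 in WT and 9903, 8349 and 7713.5 in Pbrm1 cKO. Its difference was 0.71 ± 0.34. Fam20b, a xylose kinase of proteoglycan synthesis, had 0.69 ± 0.35 and Tnr 0.68 ± 0.25, the latter opposite in sign to the Tnr intron above. Hmcn1, Olfml2b and Angptl1 overlapped.

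The 13 developmental transcription factor genes held 16 promoter regions, 10 with a negative and 6 with a positive difference. Both promoters of Rxrg, a retinoid X receptor, were lower without overlap, at −1.04 ± 0.37 and −0.26 ± 0.17. At the first, ranks were 24420, 24733 and 10821.5 in WT and 54129, 34000 and 30721.5 in Pbrm1 cKO. The homeobox genes Hlx and Lhx4 each had 1 region higher and 1 lower, at 1.01 and −0.47 for Hlx and at 0.89 and −0.22 for Lhx4. Prrx1, a mesenchymal homeobox gene, was at −0.03. Lefty1 is given above, and Lefty2 had no promoter member.

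Genes of muscle, calcium and ion transport showed small differences, with 1 of 11 promoter regions higher and 2 lower without overlap, beside the shares of all promoters given above. The exception in size was Cacna1e, an R-type calcium channel subunit, which ranked 32408.5, 53974 and 25592 in WT and 65347, 62970.5 and 63511 in Pbrm1 cKO, a difference of −0.85 ± 0.23. Tagln2, a relative of the smooth muscle protein transgelin, had −0.39 ± 0.33 at its main promoter. Itpkb, the inositol trisphosphate kinase, had 0.40 ± 0.31. Of 20 promoter regions at genes of stromal kinases and signalling, 1 was higher without overlap and 3 were lower. Abl2, a tyrosine kinase that binds actin, ranked 4565.5, 6459 and 4488 in WT and 1896, 3192 and 2868 in Pbrm1 cKO, a difference of 0.98 ± 0.43. Ddr2, a collagen receptor, had −0.45 ± 0.31, Ralgps2 −0.66 ± 0.21 and an internal promoter of Kif26b −0.63 ± 0.18. The 8 promoters of chromatin and nuclear genes had the highest median rank score of the lists, 4.20, and there Parp1, the DNA damage sensor, was lower (2303, 4806 and 2742 in WT, 8201, 5103 and 5116 in Pbrm1 cKO, −0.94 ± 0.43). Rnf2, Smyd3, H3f3a, Hnrnpu, Lbr, Tpr and Ahctf1 overlapped.

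Over the 681 kb from Aim2 to Ifi205 that holds the Ifi200 genes, 6 of 21 members were higher and 5 lower without overlap, where 10.6% and 10.8% of all regions were. Of the 13 annotated family genes 8 had a promoter member, and 5 of the 9 such regions did not overlap, with Ifi207 (0.30 ± 0.13) the one not described above. Ifi204 had the largest overlapping difference, 2.80, at ranks 1006, 229 and 3112 in WT and 42, 183 and 278 in Pbrm1 cKO. Its promoter region also has 1 near-identical copy, so reads there may have been placed at either. Among 25 leukocyte and endothelial genes of the stretch, 16 had no promoter member, including Cd48, Fcer1g and Slamf1. Of the 10 regions at the other 9, that of Fcgr4 alone did not overlap. Differences of the 10 ran from −1.63 to 1.41, with 4 positive and 6 negative. The flavin monooxygenase genes held 1 promoter region, at Fmo4, which overlapped with 0.82.

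The 5 highest-ranking members over all libraries were promoters. Pigm is described above, and at the promoter shared by Chml and Opn3 ranks were 68, 822 and 95 in WT and 353, 106 and 706 in Pbrm1 cKO. The Zbtb18 promoter ranked 380, 826 and 654 against 53, 498 and 45. The divergent promoter of Odr4 and Tpr, a nuclear pore gene, ranked 83, 266 and 891 against 735, 444 and 150. Ifi204, given above, was the fifth. Libraries of 1 genotype differed widely at these promoters, and only those of Pigm did not overlap.

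Members lay less often at promoters than regions did in general. Within 1 kb of an annotated transcription start were 26.0% of members, 28.9% of the rest of chromosome 1 and 32.3% of all regions. Introns held 38.1% of members and 33.7% of all regions, and intergenic sequence 31.6% and 28.6%. The share without overlap was 24.4% of member promoters and 16.9% of all promoters. At intergenic members it was 33.9%, beside 23.1% of all intergenic regions, and at introns 26.4% beside 23.7%. In exons the order was the other way, at 21.7% of 60 members and 25.2% of all. Of the 351 coding genes that lie entirely in the stretch, 229 had a member at a promoter. Some long genes with at least 8 members held both directions and some only one. Dnm3 had 1 higher and 3 lower of 29, Ddr2 2 and 3 of 22, and Tnr 3 and 3 of 12. All members without overlap were lower in Fam129a (4 of 14) and Nmnat2 (3 of 13) and higher in Pla2g4a (4 of 16) and Abl2 (2 of 11). Their shares without overlap were 28.6%, 23.1%, 25.0% and 18.2%, beside 28.0% of all members and 21.4% of all regions.

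Sequence content of the members was close to that of all regions. The 300 bases around the summit had a median G + C of 48.0% in the members and 50.0% in all regions, and soft-masked repeats made up a median of 7.67% and 7.33%. AP-1 matches (TGANTCA) were present in 41.0% of members and 36.6% of all regions. They were in 86 of the 183 members higher in Pbrm1 cKO (47.0%), 68 of the 202 lower (33.7%) and 41.4% of those that overlapped. Over all regions the corresponding shares were 42.7%, 36.2% and 35.8%. The CTCF core was found in 4.44% of members and 5.26% of all regions. Of the 61 members with it, 6 were higher and 1 lower without overlap (9.84% and 1.64%). Of all regions with it, 13.6% were higher and 2.80% lower. Over all regions it was likewise rarer among those lower (1.37%) than among those higher (6.74%). The TEAD letters GGAATG were in 30.6% of the higher and 25.7% of the lower members, beside 19.4% of those that overlapped. Over all regions the shares were 20.3%, 24.1% and 20.4%. E-boxes CAGCTG and CATCTG were in 19.2% and 24.2% of members (19.7% and 22.1% of all regions), the CArG box of serum response factor in 2.62% (1.70%), and the progesterone and glucocorticoid response element in 0.582% (0.534%). Overlapping motifs were counted separately.

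The conservative lists, which pool the replicates of a genotype and so allow no replicate comparison, shared 924 of the 1374 members (67.2%, beside 69.2% of all regions). WT alone held 183 (13.3%, beside 13.4% of all regions) and Pbrm1 cKO alone 267 (19.4%, beside 17.4%). Of the 183 members that ranked higher in Pbrm1 cKO without overlap, 101 were in its list only, 81 in both and 1 in the WT list only. Of the 202 that ranked lower, 102 were in the WT list only and 100 in both. The lists and the ranks come from the same libraries, so agreement between them is built in and is not a separate result. Even so, 246 of the 450 members listed for 1 genotype overlapped in rank. These splits are not given here for all regions.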

How the data were processed

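ATAC-seq libraries were made from primary oviductal muscle cells on day 2 of pregnancy, as 3 WT and 3 Pbrm1 cKO samples. The submitters' processing notes name cutadapt, Bowtie2 and MACS2 and the build GRCm38.p5. The study's methods name the ENCODE ATAC-seq pipeline 1.9.0 and an IDR (irreproducible discovery rate) threshold of 0.05. For each library the authors deposited a relaxed MACS2 peak list at p of 0.01 with at most 300000 entries. For each genotype they deposited 1 conservative IDR list of the pooled replicates. In all lists the deposited columns hold the fold enrichment at the summit as a ratio and the −log10 p-value. The deposited −log10 q-value and display score were not used here, and the summit column gives a position. Read counts per region were not used here, so peak heights carry no known library size.

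The IDR lists were merged where they overlapped by at least 1 bp, and each region took the best −log10 p of overlapping entries per library. Ranks over all 66679 regions were put on the log2 scale and fitted with limma 3.58.1 in R 4.3.3 (lmFit, eBayes with a trend, genotype as the only term), with Benjamini-Hochberg adjustment over all regions and a threshold of 0.05. The SEs are limma's moderated values, which combine the spread between the 3 samples of a genotype with a trend over all regions. The fit was tested on simulated data with normal noise of the same size in every library. That simulation did not model the shallow library or the shared last ranks, so nothing is read from it for the calls given here. Annotation was GENCODE M21 and the sequence RefSeq GRCm38.p6, the same build as the files. Near-identical copies were sought with minimap2 2.31 at 95% identity over 80% of a region, and 20 members had one. The members, the gene lists and the rule for named regions were chosen with earlier results of these data known. Named were the 12 highest and 12 lowest differences without overlap between genotypes, members with peaks in 1 genotype only, the 5 best-ranked members, and promoters of listed genes; some of these are not reported here. Alternatives were normal scores, ranks by fold, only regions with peaks in all 6 libraries, only the better-ranked regions, a stricter overlap, each library left out, a replicate block, other bin sizes, promoters within 3 kb and motifs over whole regions.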

Additional observations from a re-analysis of the deposited data

How the results depend on the processing

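The counts of members called by limma, 3 higher and 3 lower in Pbrm1 cKO, depended on the scale and on single libraries, and the cause was not tested. Normal scores instead of log2 ranks gave 32 and 52 (662 and 890 over all regions), ranks by fold 2 and 0 (6 and 1), and a fit within the upper 0.5 of regions by mean score 3 and 5 (40 and 24). Leaving out 1 library at a time gave 0 to 2 higher and 0 to 2 lower (2 to 6 and 0 to 19 over all regions). With the replicate block they were 4 and 7 (66 and 64 over all regions), although the replicate numbers did not pair the samples (correlations of deviations −0.00283, −0.0548 and 0.00933 for replicates 1, 2 and 3). In the upper 0.5 of regions 63 members were higher and 58 lower without overlap, a smaller set by construction. The median difference, 0.01, was −0.0244 by fold and 0.0279 in the upper 0.5, and −0.00202 to 0.0211 with 1 library left out. In the upper 0.5 of each IDR list, 70 members were in the WT list only and 95 in the Pbrm1 cKO list only. The highest share without overlap was 52.4% in bins of 1 Mb, at 173 to 174 Mb with 21 members, and at 5 Mb it was 34.9%, at 150 to 155 Mb. Promoters within 3 kb took in 36.5% of members, and AP-1 matches in whole regions 46.3%. The 24 named differences kept their sign under every alternative in which they were computed. They were chosen for having no overlap, so leaving out a library or taking a subset of regions could not have changed the sign. Only ranks by fold and the stricter overlap could have changed it. Depth limits the weak members: summits of 15 tags in WT replicate 3 put many ranks close together.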
